A study of Notophthalmus viridescens with 3 samples.

Results

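The let-7 family was followed in the hearts, taken whole, of adult newts (Notophthalmus viridescens), salamanders that regrow heart muscle, through 17 array probes whose names are let-7 plus a letter. These probes cover 10 names, let-7a to let-7j, of 1242 miRNA names and 1365 miRNA probes on the array, and were chosen by name alone, with passenger strands (names ending in a star) left out. Human (hsa), zebrafish (dre) and Xenopus tropicalis frog (xtr) miRNA sequences served as probe targets, so newt let-7 RNAs were read through probes designed for other species. The groups were uninjured hearts without stress, hearts at 7 days post injury (dpi) and hearts at 21 dpi, with 1 sample and 1 array each. The labels do not state how many animals a sample holds, and the injury itself is described there only by reference to an earlier publication. The question is how let-7 levels in regenerating hearts compare with those at rest. With 1 sample per group no p-value can be given, and every comparison describes these samples. In such whole-tissue RNA, fewer cells of a type and less RNA per cell cannot be told apart.

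let-7 is among the most conserved miRNA families of animals. It was found in Caenorhabditis elegans as a gene that times the passage to adult cell fates, and in mammals its mature forms accumulate as cells stop dividing and differentiate. Members pair with target messenger RNAs through a shared seed near the 5′ end and, in mammals, repress growth genes such as the RAS genes, MYC and HMGA2, while the RNA-binding protein LIN28 blocks maturation of their precursors.

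All 17 targets held the same seed, bases 2 to 8, and differed from let-7a by up to 4 substitutions outside it. The sequences below are the array's target sequences, shown because probes that differ by few bases read differently at 7 dpi. The seed and every base that differs from let-7a are in capitals.
hsa-let-7a: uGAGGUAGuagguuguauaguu
hsa-let-7c: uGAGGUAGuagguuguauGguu
hsa-let-7f: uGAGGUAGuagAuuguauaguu
xtr-let-7e: uGAGGUAGuagguuguUuaguu
hsa-let-7e: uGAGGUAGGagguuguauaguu
dre-let-7g: uGAGGUAGuagUuuguauaguu
hsa-let-7d: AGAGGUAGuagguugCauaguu
hsa-let-7b: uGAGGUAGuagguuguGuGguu
hsa-let-7g: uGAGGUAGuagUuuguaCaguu
hsa-let-7i: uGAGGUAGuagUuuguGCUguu
dre-let-7j: uGAGGUAGuUgUuuguaCaguu
hsa-miR-98: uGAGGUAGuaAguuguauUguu
Counting from 1 at the 5′ end and giving the let-7a base first, the 5 probes at 1 substitution carried A19G (let-7c), G12A (let-7f), A17U (xtr-let-7e), U9G (hsa-let-7e) and G12U (dre-let-7g). Of the pairs of let-7 targets of equal length, 12 differed by 1 base. Such probes can capture each other's RNAs, so signal cannot be assigned to a single member, brightness is not an order of abundance between probes, and the probes are not independent of each other. GC content ran from 31.8% to 45.5% over the 17 targets, with a median of 38.6% over the 14 detected on every array, against 47.4% over the 169 miRNA probes detected on every array.

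Spot intensities are given as the median of a probe's 3 spots above the median of the array's empty spots, with the lowest and highest spot where they matter. Detection required a median spot brighter than percentile 95 of the empty spots. All 17 let-7 probes were detected in uninjured hearts, 14 at 7 dpi and 14 at 21 dpi. Over the 169 probes detected on every array, the median signal was 411 in uninjured hearts, 148 at 7 dpi and 553 at 21 dpi. Relative to uninjured hearts their log2 ratio had a median of -1.43 at 7 dpi and 0.42 at 21 dpi, while 14 probes for 5S rRNA stood at -0.10 and 0.35 and 16 spike-in probes at 0.46 and 1.46. The 7 dpi array was therefore dim for miRNAs and not for 5S rRNA, and let-7 changes are read below against all these miRNA probes of the same array, let-7 included. Striated-muscle miRNAs were present, with 6 of 7 listed names (miR-1, miR-133a, miR-133b, miR-208b and both miR-499 names) detected on all 3 arrays and miR-208 on none.

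The let-7 probes held 18.1% of all miRNA signal in uninjured hearts, 13.2% at 7 dpi and 13.7% at 21 dpi. Computed from each set of replicate spots on its own, the share was 17.9% to 18.9% in uninjured hearts, 11.1% to 13.7% at 7 dpi and 10.9% to 13.7% at 21 dpi, so the range of the uninjured array did not overlap those of the injured hearts. These ranges are technical. The 7 dpi share moved with 1 other probe, miR-1826, which held 32.1% of all signal at 7 dpi, against 13.9% in uninjured hearts, and 14.6% at 21 dpi. Its log2 ratio to uninjured hearts was 0.09 at 7 dpi and 0.23 at 21 dpi. The 5S rRNA probes stood at -0.10 and 0.35, and the 169 miRNA probes at -1.43 and 0.42. Which RNA the miR-1826 probe reads was not tested. Without that probe the let-7 share was 21.0% in uninjured hearts, 19.5% at 7 dpi and 16.1% at 21 dpi. In the authors' processed values the let-7 share was 18.3%, 13.9% and 13.2% at the uninjured, 7 dpi and 21 dpi stages. The share was lower at 21 dpi with and without miR-1826, whereas at 7 dpi it lay closer to the uninjured heart once that probe was left out.

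**Figure D1:**
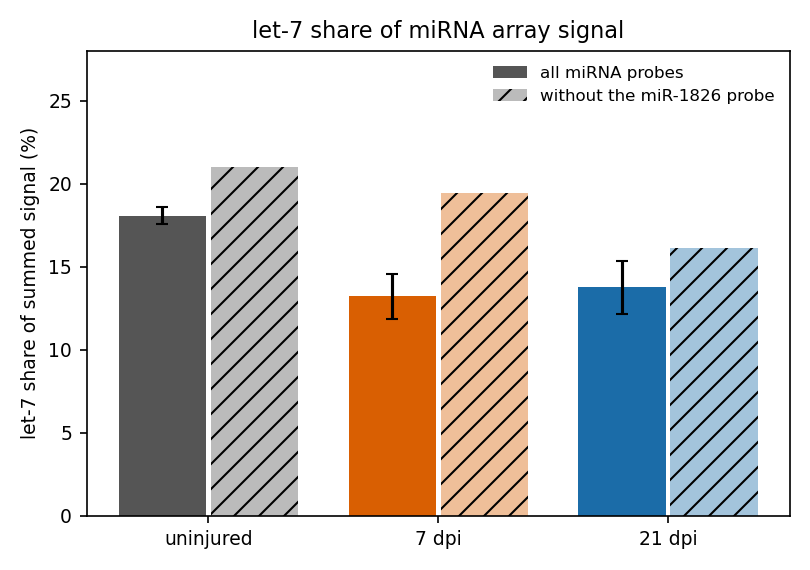
let-7 share of the summed miRNA signal on each array, in percent. Solid bars use all miRNA probes, with the SD over 3 sets of replicate spots as error bar (technical), and hatched bars leave out the miR-1826 probe. Solid bars stand at 18.1% in uninjured hearts, 13.2% at 7 dpi and 13.7% at 21 dpi, and hatched bars at 21.0%, 19.5% and 16.1%.

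The family's brightest probes were those of let-7a, let-7d and let-7f, which come from a shared gene cluster in human and made up 67.6% of let-7 signal in uninjured hearts, 73.0% at 7 dpi and 63.8% at 21 dpi. let-7a read 12728 in uninjured hearts (spots 12058 to 14191), 5063 at 7 dpi (4996 to 5139) and 10790 at 21 dpi, where 1 spot was at 2652 and the highest at 10965. let-7f read 8609 in uninjured hearts (7649 to 9339), 2933 at 7 dpi (2818 to 2990) and 7128 at 21 dpi (6578 to 7205). The 7 dpi spots of both lay below all spots of the uninjured heart, as did their 21 dpi spots, and the dim let-7a spot at 21 dpi lay below its 7 dpi spots as well. let-7d read 9560 in uninjured hearts (8907 to 10350), 3277 at 7 dpi, where 1 spot was at 391 and the highest at 3414, and 6972 at 21 dpi (4339 to 7938). Its spots at 21 dpi also lay below all spots of the uninjured heart. The 3 probes held ranks 3, 4 and 5 among all miRNA probes in uninjured hearts, in the order let-7a, let-7d and let-7f.

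let-7c and let-7b, which in human are encoded apart from that cluster, were next among the human probes. let-7c read 4450 in uninjured hearts (4184 to 5055), 1447 at 7 dpi (1431 to 1527) and 4248 at 21 dpi (3745 to 4346). let-7b read 2164 in uninjured hearts (1996 to 2349), 832 at 7 dpi (774 to 884) and 1994 at 21 dpi (1732 to 2133). For both, the spots at 21 dpi overlapped those of the uninjured heart before normalization. hsa-let-7g read 1411 in uninjured hearts (1125 to 1561), 396 at 7 dpi (364 to 426) and 1102 at 21 dpi (1065 to 1293), with the same overlap.

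The frog probe xtr-let-7e, 1 base away from let-7a, read 3142 in uninjured hearts (2938 to 3410), 619 at 7 dpi (570 to 756) and 3379 at 21 dpi (3141 to 3445). The human let-7e probe, also 1 base away, read 680 in uninjured hearts (597 to 862), 95.2 at 7 dpi (87.3 to 102) and 668 at 21 dpi (628 to 705). Both were low at 7 dpi alone, and their 21 dpi spots overlapped those of the uninjured heart. The zebrafish let-7e probe (G12A and U16A) read 733 in uninjured hearts, 179 at 7 dpi and 617 at 21 dpi. The frog let-7b probe (G12U and A17G) read 709, 153 and 454 on the same arrays, and the zebrafish let-7d probe (A10U and A19G) 878, 186 and 730. dre-let-7g read 186 in uninjured hearts (148 to 186), 32.6 at 7 dpi (29.4 to 36.3) and 220 at 21 dpi (209 to 252), the last above all spots of the uninjured heart.

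let-7i, at 4 substitutions the farthest of the targets from let-7a, was read by 2 probes that differ only by a missing 3′ base. The human probe read 293 in uninjured hearts (183 to 368), 147 at 7 dpi (113 to 150) and 498 at 21 dpi, where 1 spot was at 89.4 and the highest at 519. The frog probe read 146 in uninjured hearts (137 to 158), 73.0 at 7 dpi (68.4 to 75.2) and 172 at 21 dpi (158 to 210). At 21 dpi the middle and highest spots of the human probe lay above the uninjured heart, the dim spot lay below it, and the frog probe's spots touched the uninjured range at its upper end.

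The probes dre-let-7h, dre-let-7j and xtr-let-7g sat near the empty spots. let-7h, a zebrafish name, read 18.3 in uninjured hearts, 3.98 at 7 dpi and 13.4 at 21 dpi, dre-let-7j read 15.0, 5.56 and 15.4 on those arrays, and the frog let-7g probe 13.5, 1.63 and -3.88. They were detected in uninjured hearts only, where the detection minimum was 5.81 above the empty spots, against 5.81 at 7 dpi and 31.7 at 21 dpi. In signal above the empty spots, the uninjured median spot exceeded the 7 dpi detection minimum by 3.15-fold for let-7h, 2.58-fold for let-7j and 2.32-fold for xtr-let-7g. These bounds hold for median spots and not for single spots. The lowest uninjured spot was at 16.6 for let-7h, 10.6 for let-7j and 4.28 for xtr-let-7g, the last under the detection minimum. The highest 7 dpi spots were at 7.69, 9.26 and 3.88. These values are not scaled for the dim 7 dpi array, where the 169 probes detected on every array had a median log2 ratio of -1.43. The 3 probes also passed detection through the uninjured array alone, so the filter fixed the direction. In the same signal no bound above 1 could be set against 21 dpi. On the quantile-normalized scale, where the offset compresses dim probes, these bounds at 7 dpi were 1.20-fold, 1.13-fold and 1.07-fold, and at 21 dpi 1.06-fold for let-7h alone.

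**Figure D2:**
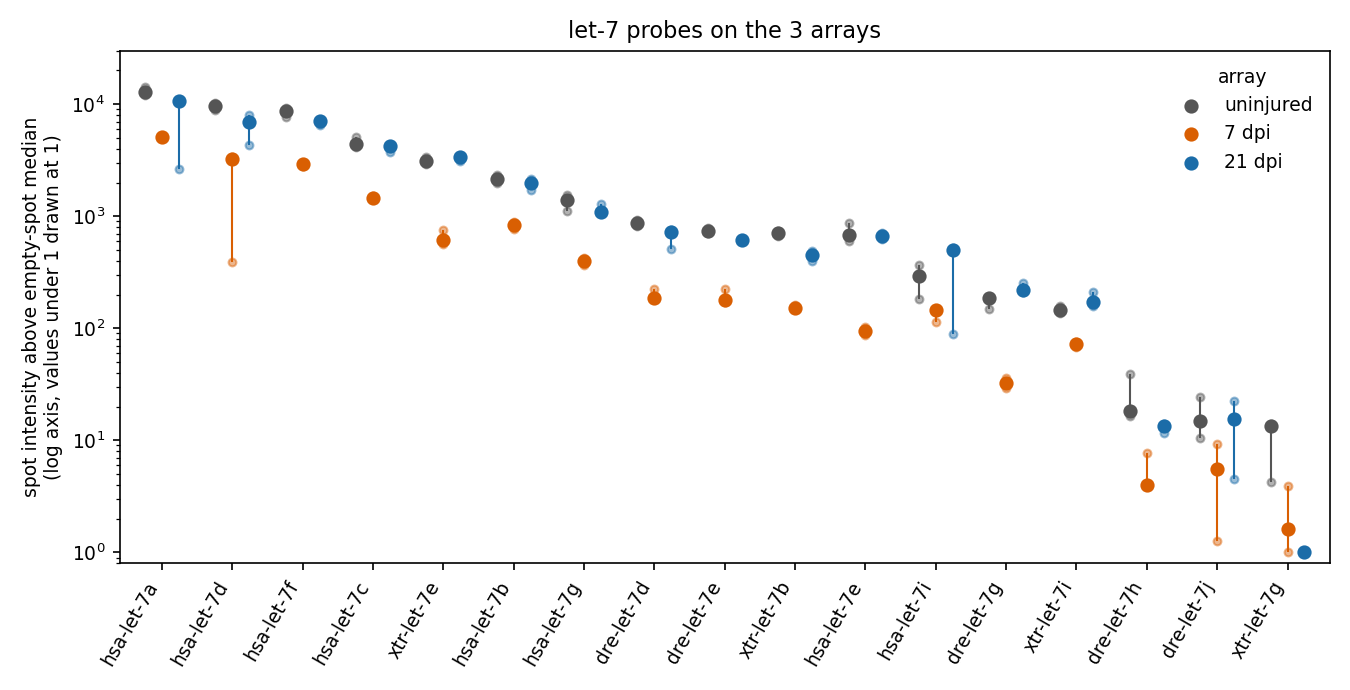
Spot intensity above the empty-spot median (log axis) for each of the 17 let-7 probes on the uninjured, 7 dpi and 21 dpi arrays. Large points are the median of 3 spots, small points the lowest and highest spot, and values under 1 are drawn at 1. Medians are lowest at 7 dpi except that of xtr-let-7g, and single dim spots stand out for hsa-let-7d at 7 dpi and for hsa-let-7a and hsa-let-7i at 21 dpi.

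At 7 dpi, the human let-7e probe and the zebrafish let-7g probe were at least 2-fold lower than in uninjured hearts, and no let-7 probe was at least 2-fold higher. Differences here are log2 values of the injured array minus the uninjured array after quantile normalization, with the standard error over the spots. hsa-let-7e stood at -1.31 ± 0.15 and dre-let-7g at -1.004 ± 0.08, each with no overlap of spots. Of the 17 let-7 probes tested, 2 were thus called lower, against 3.92% of the 255 miRNA probes tested, and 0 higher, against 8.63%. dre-let-7g lay just past the threshold, and over 11 alternatives it ran from -1.81 to -0.12, the last with scaling to the shared-probe median. It also fell short with 5S rRNA scaling, at -0.77, with cyclic loess, at -0.86, and with empty-spot subtraction and shared-median scaling together, at -0.87. In the authors' processed values with 50 added before log2 it fell short as well, at -0.65. hsa-let-7e ran from -2.52 to -1.10 over the same alternatives. Over all tested probes the calls split into 22 higher and 10 lower, into 6 and 96 when arrays were not normalized, 3 and 113 when the spike-ins set the scale, and 67 and 7 when the shared-probe median did.

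The remaining 7 dpi differences were smaller and mostly negative. Regardless of size, 40.8% of all tested probes lay below the uninjured heart with no overlap of spots and 27.8% above it. dre-let-7h, dre-let-7j and xtr-let-7g entered the tested set only through uninjured hearts, where alone they were detected, so let-7 counts are given over the 14 probes detected on all arrays. Of these, 8 lay below with no overlap, against 41.4% of the 169 probes, and 1, let-7a at 0.25 ± 0.07, lay above, against 22.5%. xtr-let-7e stood at -0.70 ± 0.13, dre-let-7d at -0.58 ± 0.09, xtr-let-7b at -0.46 ± 0.05, hsa-let-7g at -0.35 ± 0.14 and dre-let-7e at -0.33 ± 0.10. hsa-let-7b at 0.19 ± 0.08, hsa-let-7f at 0.16 ± 0.09, hsa-let-7c at -0.15 ± 0.08 and hsa-let-7i at 0.20 ± 0.25 overlapped the uninjured heart. hsa-let-7d, at -0.62 ± 0.97, rested on its dim spot and stood at 0.00 with the median of spots. The median over the 14 probes was -0.34, against -0.13 over the 169. let-7a ranked 2 among all miRNA probes at 7 dpi, against 3 in uninjured hearts, and in the authors' deposited table its log2 ratio was -0.21.

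Set against the median miRNA probe before normalization, the let-7 probes parted at 7 dpi. The quantity used is the log2 ratio of signal to the uninjured heart minus the median ratio of the 169 probes, so 0 marks a probe that dimmed as much as the median miRNA. The value uses median spots, whereas its ± is the standard error over the log2 signal of all spots of both arrays. A dim spot therefore widens the ± without moving the value much. let-7a stood at 0.10 ± 0.07, hsa-let-7b at 0.05 ± 0.09, hsa-let-7f at -0.12 ± 0.09 and hsa-let-7c at -0.19 ± 0.09, while hsa-let-7d stood at -0.12 ± 1.03. These bright human probes dimmed about as much as the median miRNA. Lower values were those of hsa-let-7e at -1.41 ± 0.17, dre-let-7g at -1.08 ± 0.14, xtr-let-7e at -0.91 ± 0.14, dre-let-7d at -0.81 ± 0.11, xtr-let-7b at -0.79 ± 0.05, dre-let-7e at -0.61 ± 0.13 and hsa-let-7g at -0.40 ± 0.15. hsa-let-7e held place 5 from the lowest of 169. Both let-7i probes stood above 0, at 0.43 ± 0.33 for the human and 0.43 ± 0.07 for the frog probe. Over 9 distinct settings of background and normalization, the human probe stayed above 0, at 0.26 to 0.41, and the frog probe ran from -0.18 to 0.45, below 0 in 5 of them.

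This split went in part with the number of species a probe is listed for. The 5 let-7 probes whose sequence is listed for 2 or more species (let-7a, let-7b, let-7c, let-7f and let-7i of human) had raw log2 ratios of -1.62 to -0.998 at 7 dpi, with a median of -1.38. The 9 listed for 1 species ran from -2.84 to -0.998, with a median of -2.22, and their highest value was that of xtr-let-7i, which lacks only the last base of the human let-7i sequence. At 21 dpi the medians of the same groups were -0.12 and -0.25, and their ranges were -0.27 to 0.76 and -0.64 to 0.25. Some probes of 1 letter from different species differed at 7 dpi, with relative values of 0.05 and -0.79 for the human and frog let-7b probes, -0.12 ± 1.03 and -0.81 for the human and zebrafish let-7d probes, and -0.40 and -1.08 for the human and zebrafish let-7g probes. The let-7g pair differs by a single base, the let-7b pair by 2 and the let-7d pair by 4. In these pairs the human probe was the higher one. For let-7e it was the lowest, at -1.41, with the frog probe at -0.91 and the zebrafish probe at -0.61. The human and frog let-7i probes stood at 0.43 each. Among the 5 probes at 1 substitution from let-7a, those with A19G and G12A stayed near 0 and those with U9G, G12U and A17U held the 3 lowest values of the family on this scale. dre-let-7g (G12U) was not among the lowest without normalization after the offset, at -0.21, against -0.26 for let-7a. Across the 155 detected probes outside the family, the 7 dpi ratio had a Pearson r of 0.37 and a Spearman rho of 0.29 with GC content, and across the 14 let-7 probes 0.36 and 0.40. These probes share arrays and, within families, sequence, and the part of GC content and of array brightness in the split was not tested.

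**Figure D3:**
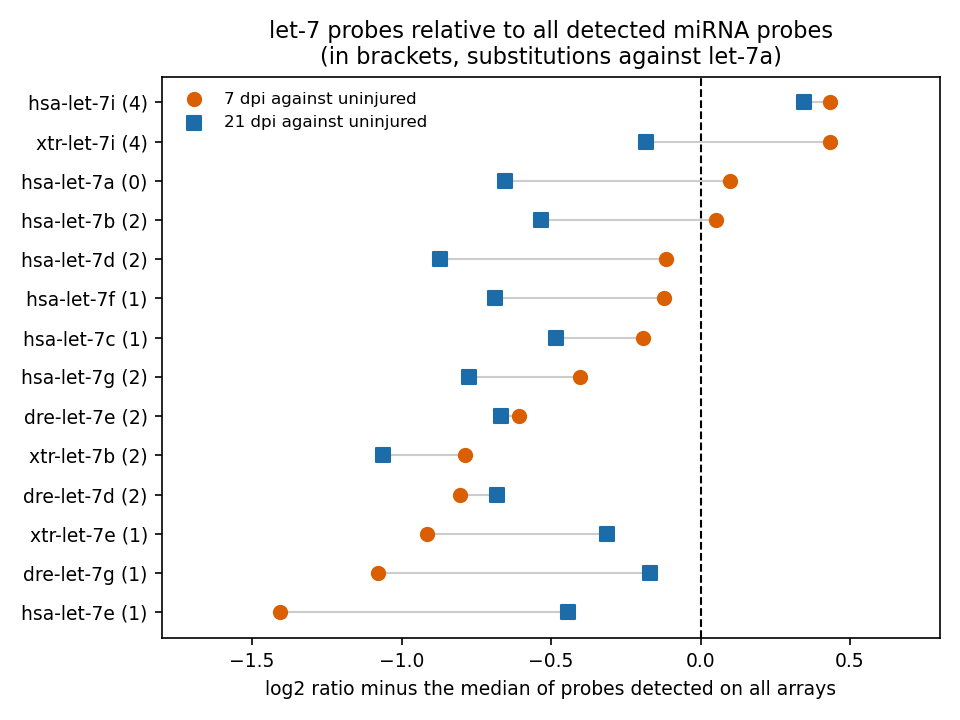
Log2 ratio of signal above the empty spots, minus the median ratio of 169 probes detected on all arrays, for the 14 let-7 probes detected on all arrays. Circles give 7 dpi and squares 21 dpi, both against the uninjured heart, and brackets count substitutions relative to let-7a. At 7 dpi values run from -1.41 (hsa-let-7e) to 0.43 (let-7i), and at 21 dpi 13 of 14 lie below 0.

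At 21 dpi the family median stood below that of the 169 miRNA probes, let-7 probes included. Before normalization, 13 of 14 let-7 probes had ratios below the median of the 169 probes, and the family median was -0.18, against 0.42 over all of them. In signal itself 10 of 14 let-7 probes were dimmer than in uninjured hearts, whereas 24.3% of the 169 probes were. The relative values ran from -1.06 ± 0.10 for xtr-let-7b to 0.35 ± 0.89 for hsa-let-7i. hsa-let-7d stood at -0.87 ± 0.27, hsa-let-7g at -0.77 ± 0.16, hsa-let-7f at -0.69 ± 0.09, let-7a at -0.65 ± 0.68, hsa-let-7b at -0.53 ± 0.11 and hsa-let-7c at -0.48 ± 0.10. The 5S rRNA median of 0.35 also lay above the let-7 median. In the authors' deposited table, 13 of 14 let-7 probes had negative log2 ratios, with a median of -0.40, against 0.12 over the 169 probes.

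No let-7 probe was called at 2-fold at 21 dpi, against 2.17% lower and 0.87% higher among the 230 miRNA probes tested. The lower count depended on the scaling. It was 17 with spike-in scaling, where 163 of all tested probes were called lower, and 3 with 5S rRNA scaling, where 16 were. It was 1 with the shared-probe median, where 13 were, and 3 when empty-spot subtraction was added, where 18 were. In the authors' processed values it was 1, where 9 were. After quantile normalization 13 of the 14 let-7 probes detected on all arrays had negative differences, against 48.5% of the 169 probes, and their median was -0.27, against 0.00. Spots did not overlap for 6 lower let-7 probes, against 21.3% of the 169, and 1 higher, against 29.6%. Over all tested probes these shares were 31.7% lower and 23% higher. The lower ones were xtr-let-7b at -0.75 ± 0.09, dre-let-7d at -0.62 ± 0.17, hsa-let-7g at -0.53 ± 0.16, dre-let-7e at -0.40 ± 0.04, hsa-let-7c at -0.34 ± 0.10 and hsa-let-7b at -0.28 ± 0.11. The higher one was let-7f, at 0.45 ± 0.09, a value set by rank: the dim let-7a spot lowered let-7a on that array, and with the median of spots let-7f stood at 0.00 and let-7a at 0.31. In the authors' deposited table let-7f stood at -0.45 and let-7a at -0.34. Overlapping spots left hsa-let-7e at -0.19 ± 0.15, dre-let-7g at -0.17 ± 0.10, xtr-let-7e at -0.06 ± 0.07 and xtr-let-7i at -0.23 ± 0.10.

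The family median lay below that of the 169 probes, let-7 probes included, in each setting tried. The settings came to 9 distinct ones, the normalization used here included, since no normalization and scaling to 5S rRNA, spike-ins or the shared-probe median move all probes of an array alike and count as 1. Over these, the let-7 median minus the median of the 169 probes was between -0.55 and -0.27 at 21 dpi, with 12 to 14 of 14 probes below, and between -0.55 and -0.21 at 7 dpi, with 8 to 12 below. Relative to that median at 7 dpi, hsa-let-7e stood at -1.58 to -1.15 and dre-let-7g at -1.65 to -0.21, its value nearest 0 being that without normalization. let-7a ran from -0.26 to 0.78, below 0 in 3 settings and above it in 6.

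**Figure D4:**
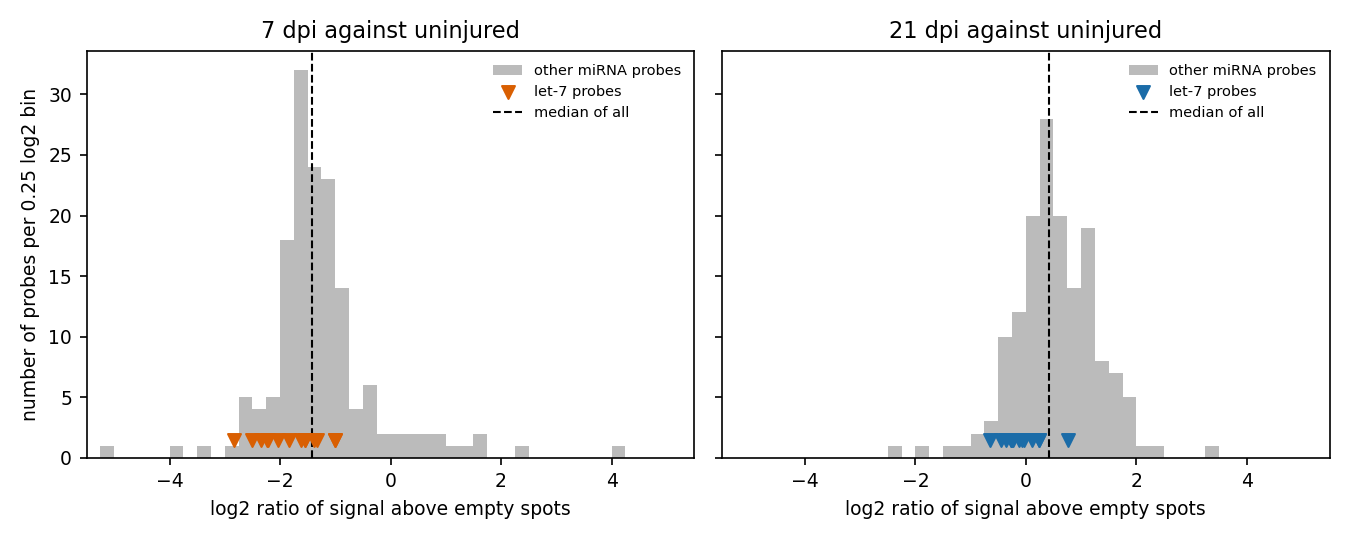
Histograms of the log2 ratio of signal above the empty spots for the 155 other miRNA probes detected on all arrays (grey, bins of 0.25 log2) with the 14 let-7 probes as triangles and the median of all 169 as a dashed line, for 7 dpi (left) and 21 dpi (right), both against the uninjured heart. The dashed lines stand at -1.43 and 0.42, and 10 of 14 let-7 probes at 7 dpi and 13 of 14 at 21 dpi lie left of them.

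At 7 dpi let-7i stood above the median of its family, which was not particular to let-7i. Relative to the let-7 median, the human let-7i probe was higher at 7 dpi by 0.52 to 0.87 and the frog probe by 0.04 to 0.98 over the same settings. After quantile normalization hsa-let-7i stood at 0.20 at 7 dpi, against a family median of -0.34. On that scale let-7a, at 0.25, stood higher, and hsa-let-7b at 0.19 and hsa-let-7f at 0.16 were close to hsa-let-7i. The let-7a value was set by rank, since let-7a and hsa-miR-1, at -0.25, exchanged normalized values. Before normalization both let-7i probes, at 0.43 relative to the 169 probes, were the highest of the family, with let-7a at 0.10. On that relative measure let-7a stood at 0.78 and hsa-let-7i at 0.28 with cyclic loess. Without normalization after the offset they stood at -0.26 and 0.33, so their order depended on the scaling. After quantile normalization the frog probe itself stood at -0.20 ± 0.05 at 7 dpi against uninjured hearts, so its own direction depended on the scaling. At 21 dpi the human probe lay between -0.03 and 0.59 and the frog probe between -0.05 and 0.48, so the direction was not kept there. Within let-7 signal, the human let-7i probe held 0.64% in uninjured hearts, 0.95% at 7 dpi and 1.28% at 21 dpi, and the frog probe 0.32%, 0.47% and 0.44%. The human value at 21 dpi is the median of spots that part widely, and its quantile-normalized difference, which averages them, was -0.22 ± 0.66.

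Between the injured hearts, hsa-let-7e passed the 2-fold threshold upward at 21 dpi relative to 7 dpi, at 1.12 ± 0.06. It was the 1 let-7 probe called of 14 tested, against 3.9% higher and 8.66% lower among 231 miRNA probes. It fell short of 2-fold with the median of spots, at 0.96, with cyclic loess, at 0.92, and in the authors' processed values, at 0.74. Over 11 alternatives it ran from 0.69 to 2.22. No let-7 probe was called higher with scaling to the shared-probe median or to spike-ins, or with empty-spot subtraction and shared-median scaling together. dre-let-7g at 0.83 ± 0.07 and xtr-let-7e at 0.64 ± 0.12 were also higher with no overlap of spots, as was hsa-let-7f at 0.29 ± 0.05, which makes 4 let-7 probes against 37.2% of all tested. The let-7f value was 0.00 with the median of spots, -0.15 in the authors' deposited table and -0.65 relative to the 169 probes, so its direction was not kept. hsa-let-7b at -0.48 ± 0.10, xtr-let-7b at -0.29 ± 0.08 and hsa-let-7c at -0.19 ± 0.07 were lower with no overlap. These are 3 of 14 let-7 probes, against 32% of all tested and 18.9% of the 169. let-7a, at -0.54 ± 0.67, overlapped. Both comparisons use the 7 dpi array, so the hsa-let-7e and dre-let-7g values at 21 dpi against 7 dpi repeat their low 7 dpi signal.

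Relatives of the family outside the rule were mostly silent. hsa-miR-98, the other name on the array with the let-7 seed, differs from let-7a by G11A and A19U and was not detected on any array, with signals over empty of 0.74 in uninjured hearts, -2.00 at 7 dpi and -11.2 at 21 dpi. The dim let-7h probe shares both of these substitutions and adds A17G. Of 10 passenger-strand probes of let-7, 9 were not detected on any array and let-7d* was detected at 7 dpi alone, at 10.2 above the empty spots. The passenger strand is the partner discarded when the mature let-7 is loaded, and its probes were all made for human sequences.

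let-7 genes lie beside genes of miR-99, miR-100 and miR-125 in human, and 5 of the 7 listed partner probes were detected on all arrays, with miR-98 and miR-99b on none. Their summed signal, not scaled between arrays, was 11202 in uninjured hearts, 4544 at 7 dpi and 12091 at 21 dpi. At 7 dpi xtr-miR-125a stood at 0.33 ± 0.04, miR-125b at 0.24 ± 0.07, miR-99a at -0.08 ± 0.07, miR-100 at -0.33 ± 0.25 and hsa-miR-125a-5p at -0.55 ± 0.08. At 21 dpi these stood at -0.16 ± 0.12, -0.24 ± 0.07, -0.36 ± 0.24, -0.65 ± 0.79 and 0.62 ± 0.09. No partner was called at 2-fold against the uninjured heart, and hsa-miR-125a-5p was called higher at 21 dpi than at 7 dpi, at 1.17 ± 0.11.

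The miRNAs outside the family whose differences came nearest to the let-7 medians were miR-218a, miR-19c, miR-93, miR-26a and miR-126. Likeness was the Euclidean distance to the median pair of the 14 let-7 probes, -0.34 at 7 dpi and -0.27 at 21 dpi, over 130 names detected on all 3 arrays. The distances were 0.02 for miR-218a, 0.06 for miR-19c, 0.09 for miR-93, 0.12 for miR-26a and 0.17 for miR-126, on the log2 scale. The miR-218a probe was dim, at 58.9 in uninjured hearts, 21.2 at 7 dpi and 41.25 at 21 dpi. Before normalization its 7 dpi log2 ratio was -1.47, against medians of -1.73 for let-7 and -1.43 over the 169 probes. At 21 dpi that ratio was 0.27 for miR-19c, -0.14 for miR-26a and -0.05 for miR-126. The 7 dpi difference of miR-26a, -0.44 ± 0.26, had overlapping spots. The place of miR-93 rests on a 21 dpi mean of spots that part widely, at -0.36 ± 0.72. Its log2 ratio from the median spots before normalization was 0.79 at 21 dpi, against medians of -0.18 for let-7 and 0.42 over the 169 probes. With 2 differences per miRNA this likeness describes the arrays only.

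Marker lists of other cell types varied on the same arrays. The sums below are signal above the empty spots, not scaled between arrays, and the 7 dpi array was dim for miRNAs. The leukocyte list (miR-155, miR-223, miR-142-3p, miR-142-5p and miR-150) had a summed signal of 171 in uninjured hearts, 287 at 7 dpi and 565 at 21 dpi, with 3, 3 and 4 of 5 names detected and miR-142-5p on no array. After quantile normalization the list was not uniform at 7 dpi against uninjured hearts. hsa-miR-155 stood at 1.51, xtr-miR-155 at 1.02, hsa-miR-223 at 1.48 and xtr-miR-150 at 0.75. hsa-miR-150 at 0.18 and xla-miR-223 at 0.09 had overlapping spots. dre-miR-150 at -0.03, miR-142-3p at -0.06 and miR-142-5p at 0.04 were detected on neither array. At 21 dpi against 7 dpi hsa-miR-155 stood at -0.62, xtr-miR-155 at -0.66, hsa-miR-223 at -0.76 and xtr-miR-150 at -0.27. In that comparison hsa-miR-150 stood at 0.24 and miR-142-3p, detected at 21 dpi alone, at 0.87. The striated-muscle list summed to 27562, 9269 and 28070, the erythroid list (miR-451, miR-144 and miR-486-5p, the last not detected) to 3462, 1123 and 4066, and endothelial miR-126 read 2949, 867 and 2844. Smooth-muscle miRNAs (miR-143 and miR-145) summed to 142, 39.3 and 342. The epithelial list (miR-200b, miR-203 and miR-205, the last not detected) summed to 39.5, 13.2 and 34.6. The neuronal list (miR-9, miR-124 and miR-128) summed to 254, 64.2 and 260. Its miR-9 and miR-124 were detected on no array, so these sums came almost wholly from miR-128, at 251, 64.2 and 260. Liver miR-122 was detected at 7 dpi alone, at 85.2. The summed let-7 signal was 45735 in uninjured hearts, 15445 at 7 dpi and 39000 at 21 dpi. The part of changed cell composition in the let-7 values was not tested.

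Dim single spots occurred in the family and outside it. Counting probes whose lowest spot was under 50% of the median spot, 0 of 14 let-7 probes had one in uninjured hearts, 1 at 7 dpi and 2 at 21 dpi, beside 10, 8 and 16 of the 155 other detected probes.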

How the data were processed

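Total RNA of 3 newt heart samples was tagged at its 3′ ends for Cy3 staining and hybridized to 1-colour miRNA arrays, 0.5 µg per assay per the labels' protocols. The deposited files hold foreground intensity for each of 3 spots per probe, per the file headers, and the authors' processed intensity values for each probe, with a normalization that the sources used here do not give. No genome build applies. A local background column had been foreseen in the design and the files hold none, so normexp (limma 3.58.1 in R 4.3.3, offset 50) was run on the foreground alone, followed by log2, the mean over spots and quantile normalization over the miRNA probes. A probe was called where the difference was at least 2-fold, the probe was detected on at least 1 of both arrays (median spot above percentile 95 of the empty spots) and the spots did not overlap. Arrays have no read depth, and their number limits precision: no test was possible, and errors are technical. The call script was checked on simulated data. Named miRNAs are all let-7 probes, those with the let-7 seed, the star strands, the cluster partners, the 5 nearest in pattern, and marker lists for striated muscle, leukocytes, erythroid cells, endothelium, smooth muscle, liver, epithelium and neurons. miR-1826 was named after its values were seen. Members and lists were chosen with earlier results of these data known. Alternatives covered the background, scaling, spot summary, detection and fold threshold. Sequences are the arrays' target sequences.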

Additional observations from a re-analysis of the deposited data

How the results depend on the processing

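No paired analysis was possible because each group holds 1 sample, and no sample could be left out in turn for the same reason. The spread between spots is technical, and dim probes near the empty spots carry little information, most of all at 21 dpi. Of the values answering a comparison, 136 stayed close to those reported under an alternative and 86 moved. Counts were taken as close when equal or within 1.5-fold, and medians and shares when they shifted by less than the SD over spots. The alternatives for detection changed no call count, and these unchanged counts are among the 136, so the totals do not measure robustness. Why values moved was not tested. With no normalization, values for 7 dpi against uninjured were higher calls over all probes 6, lower calls over all probes 96, the let-7 median -1.53 and lower let-7 calls 12, and those for 21 dpi against uninjured were higher calls over all probes 18 and lower calls over all probes 1, and those for 21 dpi against 7 dpi were higher calls over all probes 127, lower calls over all probes 4, the let-7 median 1.43 and higher let-7 calls 11. With cyclic loess, values for 7 dpi against uninjured were lower let-7 calls 1, and those for 21 dpi against uninjured were higher calls over all probes 4, and those for 21 dpi against 7 dpi were higher let-7 calls 0 and lower let-7 calls 1. With scaling to the shared-probe median, values for 7 dpi against uninjured were higher calls over all probes 67, and those for 21 dpi against uninjured were higher calls over all probes 4, lower calls over all probes 13, the let-7 median -0.50 and lower let-7 calls 1, and those for 21 dpi against 7 dpi were higher calls over all probes 1, lower calls over all probes 68, higher let-7 calls 0 and lower let-7 calls 1. With 5S rRNA scaling, values for 7 dpi against uninjured were lower calls over all probes 30, the let-7 median -0.99 and lower let-7 calls 8, and those for 21 dpi against uninjured were lower calls over all probes 16, the let-7 median -0.64 and lower let-7 calls 3, and those for 21 dpi against 7 dpi were lower calls over all probes 47, the let-7 median 0.39 and higher let-7 calls 2. With spike-in scaling, values for 7 dpi against uninjured were higher calls over all probes 3, lower calls over all probes 113, the let-7 median -1.76 and lower let-7 calls 12, and those for 21 dpi against uninjured were higher calls over all probes 1, lower calls over all probes 163, the let-7 median -1.70 and lower let-7 calls 17, and those for 21 dpi against 7 dpi were higher calls over all probes 3, lower calls over all probes 60 and higher let-7 calls 0. With offset 16, values for 7 dpi against uninjured were lower calls over all probes 21, and those for 21 dpi against uninjured were higher calls over all probes 6 and lower calls over all probes 8, and those for 21 dpi against 7 dpi were higher calls over all probes 21 and higher let-7 calls 2. With empty-spot subtraction and a floor of 32, values for 7 dpi against uninjured were lower calls over all probes 21, and those for 21 dpi against uninjured were higher calls over all probes 7 and lower calls over all probes 12, and those for 21 dpi against 7 dpi were higher calls over all probes 27 and higher let-7 calls 2. With the median of spots, values for 21 dpi against uninjured were higher calls over all probes 1 and lower calls over all probes 8, and those for 21 dpi against 7 dpi were higher let-7 calls 0. With the authors' processed values, values for 7 dpi against uninjured were lower let-7 calls 1, and those for 21 dpi against uninjured were lower calls over all probes 9 and lower let-7 calls 1, and those for 21 dpi against 7 dpi were higher calls over all probes 3 and higher let-7 calls 0. With that subtraction and shared-median scaling together, added after seeing the data, values for 7 dpi against uninjured were higher calls over all probes 112, lower calls over all probes 4, higher let-7 calls 3 and lower let-7 calls 1, and those for 21 dpi against uninjured were higher calls over all probes 13, lower calls over all probes 18, the let-7 median -0.53 and lower let-7 calls 3, and those for 21 dpi against 7 dpi were higher calls over all probes 3, lower calls over all probes 81, the let-7 median -0.34, higher let-7 calls 0 and lower let-7 calls 1. At a threshold of 1.5-fold, values for 7 dpi against uninjured were higher calls over all probes 36 and lower calls over all probes 30, and those for 21 dpi against uninjured were higher calls over all probes 17, lower calls over all probes 18 and lower let-7 calls 2, and those for 21 dpi against 7 dpi were higher calls over all probes 29, lower calls over all probes 31 and higher let-7 calls 3. The let-7 share without miR-1826 was 21.0% in uninjured hearts, 19.5% at 7 dpi and 16.1% at 21 dpi, and with 1 probe per name 18.9% in uninjured hearts.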
